A study of Mus musculus with 6 samples.

Results

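Macrophages of a healing infarct take up dying cells and the iron and heme they contain. Expression of 10 genes of iron storage, iron export and heme degradation was therefore compared between infarct macrophages with and without the α5 integrin chain. The 10 genes were chosen with earlier results of these data known, and were taken by symbol from a count table of 54532 genes. They are Fth1, Ftl1 and Ncoa4 (storage), Slc40a1 (export), Tfrc, Steap3 and Slc11a1 (uptake and endosomal or phagosomal transport), Hmox1 (heme degradation), and Aco1 and Ireb2 (iron sensing). All 10 had counts in all 6 libraries.

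Both groups were C57BL/6 mice operated at 12 weeks of age, in which the left anterior descending artery of the heart was tied off for good, and cells were harvested 7 days later. The control group (controls, below) comprised 3 ITGA5 fl/fl mice, which carry loxP-flanked Itga5 alleles and no Cre. The Myα5KO group comprised 3 mice with the same floxed alleles and LyzM-Cre, a Cre recombinase under the lysozyme M promoter that is active in macrophages, monocytes and neutrophils. Cells of single hearts were depleted of Ly6G+ neutrophils and enriched for CD11b on magnetic columns, so each library is a bulk sample of Ly6G- CD11b+ cells. Because the controls lacked Cre, effects of Itga5 loss and of the Cre allele cannot be told apart here. C57BL/6 mice are also known to carry a loss-of-function allele of Slc11a1, which both groups share.

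Library totals lay between 15424451 and 18419287 counts. Itga5 had 607 ± 43.2 CPM in the controls and 48.7 ± 1.48 CPM in Myα5KO libraries (SD, n = 3 each), where CPM are counts scaled to library size with TMM factors. Summed markers of macrophages without Lyz2, the locus of the Cre driver, were 9653 to 9870.3 CPM in the controls and 7934 to 8824 CPM in Myα5KO libraries, and of these 7 genes 1 was higher (Fcgr1) and 1 lower (Cd14). Most of this difference lay in Cd14, with 4755 ± 159.9 CPM in the controls and 3489 ± 239 CPM in Myα5KO libraries (SD, n = 3 each). Adgre1, Csf1r, Cd68 and Mertk were at 96.9%, 98.4%, 95.9% and 99.5% of the mean of the controls. Itgam, which encodes CD11b, was at 87.4% (edgeR adjusted p 0.291), and Lyz2 itself at 53.0% (edgeR adjusted p 4.27e-05). Myα5KO replicate 3 stood farthest from the other libraries of its group (chi-square per degree of freedom up to 13.3, against 5.15 to 7.01 for pairs of a group without it). Markers of other cell types were present as well. Monocyte markers summed to 316 to 397 CPM in the controls and 466 to 478 CPM in Myα5KO libraries (3 of 7 genes higher). Granulocyte markers summed to 179.6 to 225 CPM and 242 to 369.6 CPM. Of these 9 genes 7 were tested, and 5 were higher (S100a8, S100a9, Ngp, Camp and Ltf, at 284% to 413% of the mean of the controls). Csf3r, the largest part of the sum, was at 109% and was not called. Fibroblast markers summed to 1620 to 1899 CPM and 1211 to 1579 CPM, with 1 of 8 genes lower. Cardiomyocyte markers summed to 19.5 to 22.1 CPM and 12.8 to 16.6 CPM, with 2 of 8 genes lower, and T and NK cell markers to 5.03 to 5.75 CPM and 7.60 to 8.83 CPM, with 0 of 3 tested genes called by edgeR. Dendritic, B-cell, endothelial and resident macrophage sums overlapped between groups. Over all 14522 tested genes edgeR called 3.56% higher and 5.19% lower. The part of these marker differences in the results below was not tested.

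As background, iron that enters a macrophage is either stored or exported. Ferritin, a hollow shell of heavy (FTH1) and light (FTL1) chains, stores it. The heavy chain oxidises ferrous iron and the light chain aids mineral formation, and NCOA4 carries ferritin to the lysosome for breakdown. Heme from red cells and from myoglobin is cleaved by HMOX1 into biliverdin, carbon monoxide and ferrous iron, and ferroportin (SLC40A1) exports iron from the cell. When iron is scarce, the iron regulatory proteins encoded by Aco1 and Ireb2 bind hairpins called iron-responsive elements. In a 5′ untranslated region such a hairpin lets them block translation, and in the 3′ untranslated region of Tfrc it lets them stabilise the mRNA, so that transcript levels are a partial view of this system.

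The hairpins are shown because they sort the genes by the control they are known to share. The transcripts of the tested protein-coding genes (GENCODE M21, GRCm38) were searched on the sense strand for an unpaired C, 5 bases, the loop CAGTGN and 5 bases that pair with the first 5, with G-T pairs allowed. Of 12702 genes, 26 (0.205%) held this pattern in a 5′ untranslated region and 97 (0.764%) in a 3′ untranslated region. Among the 10 genes it was found in the 5′ untranslated regions of Fth1, Ftl1 and Slc40a1, and at 4 places in the 3′ untranslated region of Tfrc. The sequences below run 5′ to 3′ on the transcribed strand, with the loop in capitals.
Fth1, chr19:9982732-9982760, plus strand: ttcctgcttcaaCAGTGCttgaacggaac
Ftl1, chr7:45459779-45459807, minus strand: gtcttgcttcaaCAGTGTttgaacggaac
Slc40a1, chr1:45925465-45925493, minus strand: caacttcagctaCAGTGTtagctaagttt
Tfrc, chr16:32631219-32631247, plus strand: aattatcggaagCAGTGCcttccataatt
Tfrc, chr16:32631598-32631626, plus strand: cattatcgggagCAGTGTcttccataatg
Tfrc, chr16:32631663-32631691, plus strand: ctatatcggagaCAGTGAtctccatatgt
Tfrc, chr16:32631710-32631738, plus strand: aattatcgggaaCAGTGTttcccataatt
The other 6 genes had no match, which says only that these letters were not found in the untranslated regions of their annotated protein-coding transcripts.

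Transcript levels were compared between the 10 genes on the deposited FPKM scale, which divides counts by gene length. Fth1 ranked 2 of the 54532 genes by mean FPKM (8491), Ftl1 ranked 8 (2890.0) and Hmox1 ranked 29 (1005). Slc11a1 followed at rank 278 with 168 FPKM. The ranges of these 4 genes over the 6 libraries did not overlap each other. The other 6 genes lay far lower, with mean FPKM of 11.2 for Aco1, 8.20 for Steap3, 7.96 for Ncoa4, 6.97 for Tfrc, 6.22 for Slc40a1 and 5.51 for Ireb2. Aco1 stood above Steap3 in all libraries, whereas each of the genes from Steap3 to Ireb2 overlapped its neighbour in this order. The deposited length of a gene is a single value, 9365 bases for Ncoa4 and 9000 bases for Slc40a1, and FPKM of a gene that uses only some of its exons are understated on this scale.

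**Figure D1:**
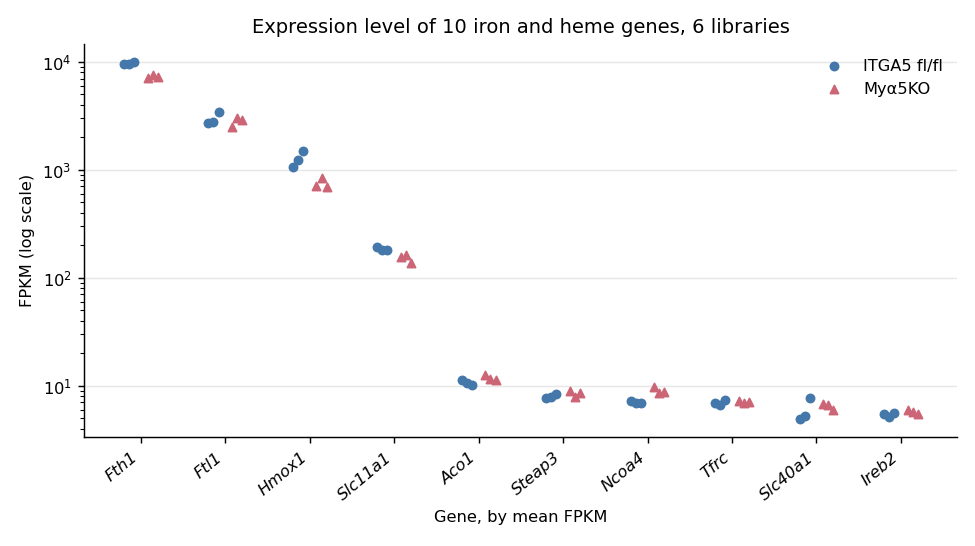
FPKM (log scale) of the 10 genes, ordered by mean FPKM, with a circle for each of 3 ITGA5 fl/fl libraries and a triangle for each of 3 Myα5KO libraries. Fth1, Ftl1, Hmox1 and Slc11a1 stand apart from each other and from the remaining 6 genes, which lie between 4.88 and 12.6 FPKM.

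In Myα5KO macrophages, Hmox1, Fth1 and Slc11a1 fell and Ncoa4 rose, whereas the differences in Ftl1, Slc40a1, Tfrc, Steap3, Aco1 and Ireb2 did not pass the test. All 10 genes passed the expression filter. With edgeR's quasi-likelihood test at an adjusted p of 0.05 or less, 1 of the 10 was higher and 3 were lower. Over all 14522 tested genes 8.75% were called, with 3.56% higher and 5.19% lower (517 and 754 genes). Because the 10 genes were chosen with earlier results of these data known, their count is no test of an excess over this share. With scaling by library totals the balance of all genes was the reverse, with 1212 higher and 518 lower, while of the 10 genes 1 was higher and 2 were lower. Leaving out a library lowered the counts over all genes, to 187 higher and 429 lower without ITGA5 fl/fl replicate 3, 252 and 471 without ITGA5 fl/fl replicate 2, and 264 and 555 without Myα5KO replicate 2. The CPM of both groups did not overlap for 2 genes that were higher in Myα5KO macrophages (Ncoa4 and Aco1) and for the 3 lower genes, while 14.9% of tested genes were separated upward and 13.8% downward. The median absolute log2 fold change was 0.14 for the 10 genes and 0.15 for all tested genes, and the signed medians were 0.06 and 0.01. In these bulk samples, fewer cells that express a gene and less RNA per cell cannot be told apart. DESeq2 and limma-voom also called 1 gene higher and 3 lower. Without Myα5KO replicate 3, Hmox1 (-0.72), Fth1 (-0.41) and Ncoa4 (0.38) passed the edgeR test and Slc11a1 (-0.21) did not.

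**Figure D2:**
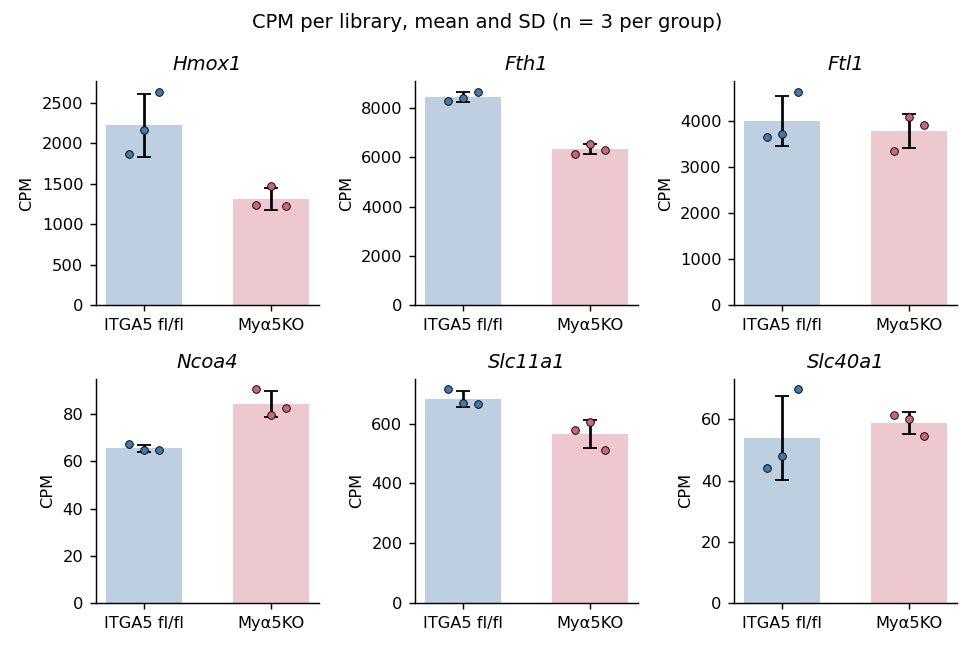
CPM of 6 genes in each library (points), with bars for the group mean and SD error bars (n = 3 per group, axes from 0). The Hmox1, Fth1 and Slc11a1 points of Myα5KO libraries lie below all ITGA5 fl/fl points, those of Ncoa4 lie above, and those of Ftl1 and Slc40a1 overlap.

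The largest change among the 10 genes was in heme degradation. Hmox1 (ENSMUSG00000005413, GRCm38 chromosome 8, 75093621 to 75100589, plus strand), the inducible heme oxygenase, had 1868, 2166 and 2640.3 CPM in the ITGA5 fl/fl libraries. It had 1240.1, 1470.1 and 1232 CPM in the Myα5KO libraries. The control libraries varied more than the Myα5KO libraries, and the groups did not overlap. Mean expression was 2225 ± 389.5 and 1314 ± 135 CPM (SD, n = 3 each), so Myα5KO macrophages held 59.1% of the mean of the controls. The log2 fold change was -0.76 (SE 0.11, edgeR adjusted p 0.00143). It ran from -0.87 to -0.62 when each library was left out in turn, and Hmox1 was called in all 16 alternative fits. None of its 50-base words occurs in another annotated transcript.

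Of the ferritin chains, the heavy chain transcript fell and the light chain transcript did not pass the test. Fth1 (ENSMUSG00000024661, chromosome 19, 9982703 to 9985092, plus strand) had 8281, 8409.6 and 8671 CPM in the controls and 6142, 6553 and 6321 CPM in Myα5KO libraries. Libraries of a group lay close together and the groups were far apart. The means were 8454 ± 198 and 6339 ± 206 CPM (SD, n = 3 each), and 75.0% of the control level was left. Its log2 fold change was -0.42 (SE 0.08, edgeR adjusted p 0.00508), and Fth1 was called in all 16 alternative fits. Only 1.59% of its 50-base words and 0 of its 150-base words, the read length, occur in other genes.

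Ftl1 (ENSMUSG00000050708, chromosome 7, 45457944 to 45459884, minus strand) had 3657, 3724 and 4642 CPM in the controls and 3362, 4085 and 3909 CPM in Myα5KO libraries. The groups overlapped, with ITGA5 fl/fl replicate 3 above all others. The log2 fold change was -0.08 (SE 0.10, 95% interval -0.31 to 0.14, edgeR adjusted p 0.691), and without ITGA5 fl/fl replicate 3 it was 0.04. The interval includes a decrease of a size close to that of Slc11a1, so a small change of Ftl1 was not detectable with 3 libraries per group. The count of Ftl1 is also less certain than that of Fth1, because 58.4% of its 50-base words and 36.3% of its 150-base words occur in other annotated genes, mainly the copy Ftl1-ps1. Ftl1-ps1 held 280 to 426 counts per library against 54557 to 81563 for Ftl1, and Gm10252, a gene of unknown type, overlaps up to 355 bases of an Ftl1 exon on the opposite strand with 77 to 116 counts. Neither was called. Gm15590, a processed pseudogene that shares 50-base words with Ftl1, held 68 to 142 counts and was called lower (log2 fold change -0.74, edgeR adjusted p 0.026).

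The ratio of the ferritin chains does not depend on the scaling of the libraries. The FPKM of Fth1 divided by that of Ftl1 was 3.50, 3.49 and 2.89 in the controls and 2.83, 2.48 and 2.50 in Myα5KO libraries. All Myα5KO values were lower, although ITGA5 fl/fl replicate 3 and Myα5KO replicate 1 were near each other. The means were 3.30 ± 0.351 and 2.60 ± 0.193 (SD, n = 3 each), a difference of -0.34 on the log2 scale (exact two-sided permutation test, p = 0.1, the smallest that 3 against 3 allows, and 0.2 after adjustment over the 2 ratios examined). This exact test cannot reach 0.05 with 3 libraries per group, whatever the size of the difference.

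Ncoa4 (ENSMUSG00000056234, chromosome 14, 32159865 to 32179855, plus strand), the cargo receptor for ferritin breakdown, moved in the opposite direction to Fth1. It had 67.4, 64.7 and 64.7 CPM in the controls and 90.6, 79.8 and 82.7 CPM in Myα5KO libraries. All Myα5KO libraries were above all controls, which hardly varied. The means were 65.6 ± 1.58 and 84.4 ± 5.55 CPM (SD, n = 3 each), which put Myα5KO macrophages at 129% of the mean of the controls. The log2 fold change was 0.36 (SE 0.07, edgeR adjusted p 0.00565). It ran from 0.30 to 0.40 with a library left out, and Ncoa4 was called in all 16 alternative fits. A processed pseudogene on another chromosome, Gm6768, shares 17.9% of the 50-base words of Ncoa4 and held 0 to 9 counts per library.

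Export and uptake genes showed smaller differences. Slc40a1 (ENSMUSG00000025993, chromosome 1, 45908068 to 45926523, minus strand), which encodes ferroportin, had 44.0, 47.9 and 69.8 CPM in the controls and 61.5, 60.1 and 54.7 CPM in Myα5KO libraries. ITGA5 fl/fl replicate 3 was the highest of all 6 and the other controls were the lowest, so the groups overlapped. The log2 fold change was 0.12 (SE 0.13, 95% interval -0.16 to 0.40, edgeR adjusted p 0.629). A control library decided this value. Without ITGA5 fl/fl replicate 3 it was 0.35 and passed the test (edgeR adjusted p 0.0352, where its alternatives ran from 0.0352 to 0.995), and without ITGA5 fl/fl replicate 1 it was -0.0024.

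Slc11a1 (ENSMUSG00000026177, chromosome 1, 74375195 to 74386062, plus strand), a metal transporter of the phagosome membrane, had 715, 669 and 667 CPM in the controls and 578, 604 and 513 CPM in Myα5KO libraries. The groups did not overlap. The means were 684 ± 26.9 and 565 ± 47.1 CPM (SD, n = 3 each), or 82.7% of the mean of the controls. On the log2 scale the difference was -0.27 (SE 0.08, edgeR adjusted p 0.0389). This call was the least stable of the 4. It was lost without ITGA5 fl/fl replicate 1 (-0.24), 2 (-0.29) or 3 (-0.29) and without Myα5KO replicate 1 (-0.30) or 3 (-0.21), and held without Myα5KO replicate 2 (-0.33). It was also lost with scaling by library totals (-0.19) and with limma on log2(FPKM + 1) or log2(FPKM + 0.1) (-0.28 in both).

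Tfrc (ENSMUSG00000022797, chromosome 16, 32608920 to 32632794, plus strand), the transferrin receptor, had 42.4, 41.0 and 45.9 CPM in the controls and 44.2, 42.9 and 43.9 CPM in Myα5KO libraries. The Myα5KO values lay within the range of the controls. The log2 fold change was 0.02 (SE 0.07, 95% interval -0.13 to 0.17, edgeR adjusted p 0.907), and without ITGA5 fl/fl replicate 2 it was -0.02. Steap3 (ENSMUSG00000026389, chromosome 1, 120190757 to 120272705, minus strand), which reduces transferrin-bound iron in endosomes, had 43.8 to 47.6 CPM in the controls and 45.2 to 51.3 CPM in Myα5KO libraries (log2 fold change 0.10, SE 0.07, edgeR adjusted p 0.460). These ranges overlapped.

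Of the genes of both iron regulatory proteins, neither passed the test. Their CPM were similar, but CPM are not divided by gene length, which is 4496 bases for Aco1 and 9479 bases for Ireb2. Aco1 (ENSMUSG00000028405, chromosome 4, 40143081 to 40198338, plus strand), which encodes cytosolic aconitase and iron regulatory protein in the same molecule, had 50.5, 47.5 and 45.8 CPM in the controls and 57.0, 51.6 and 51.3 CPM in Myα5KO libraries. The groups were separated by a small margin. The log2 fold change was 0.15 (SE 0.07, 95% interval -0.0033 to 0.31, edgeR adjusted p 0.227). Ireb2 (ENSMUSG00000032293, chromosome 9, 54863789 to 54912530, plus strand), which encodes the iron regulatory protein that is controlled by degradation, had 48.5 to 52.8 CPM in the controls and 52.2 to 56.6 CPM in Myα5KO libraries, which overlapped (log2 fold change 0.09, SE 0.07, edgeR adjusted p 0.459). The FPKM ratio of Aco1 to Ireb2 was 1.99 ± 0.140 in the controls and 2.07 ± 0.0520 in Myα5KO macrophages (SD over 3 libraries per group, exact two-sided permutation test, p = 0.6, also after adjustment over the 2 ratios).

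**Figure D3:**
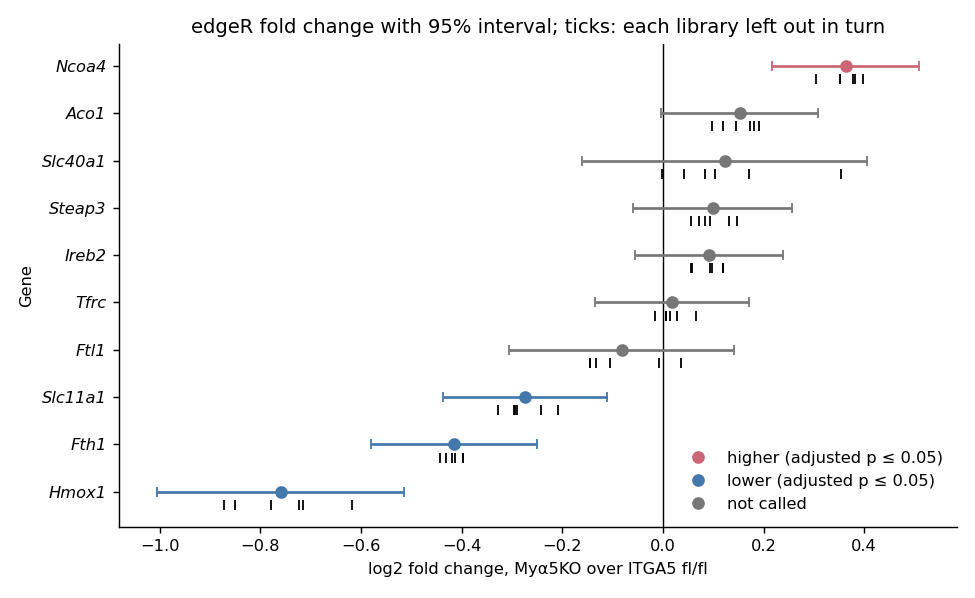
Log2 fold change of each gene, Myα5KO over ITGA5 fl/fl, from edgeR (points) with its 95% interval (bars), and the values with each of the 6 libraries left out in turn (ticks). The ticks of Hmox1, Fth1 and Slc11a1 stay below 0 and those of Ncoa4 above 0. Those of Aco1, Steap3 and Ireb2, which were not called, also stay above 0. Those of Ftl1, Tfrc and Slc40a1 lie on both sides of 0, for Slc40a1 from -0.0024 to 0.35.

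To place these genes, 57 further genes of iron and heme handling were examined, a list also chosen with earlier results of these data known. Of these, 56 had a count and 47 passed the expression filter. Of the 47, 1 rose (Lcn2) and 5 fell (Slc11a2, Slc39a14, Slc48a1, Bach1 and Spic), and 41 did not pass the test, against the 8.75% called over all genes. With edgeR, 15 of the 47 had an unadjusted p under 0.05, as had 3353 of all 14522 tested genes. The median log2 fold change of the 47 was -0.03. With library totals as the scaling, 3 were higher and 3 lower, so the balance of directions depended on the scaling.

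Of 9 tested genes of iron uptake and reduction, 1 rose and 2 fell (3.56% and 5.19% of all tested genes). Slc11a2, which encodes the endosomal and surface iron transporter DMT1, had 184, 174.6 and 192 CPM in the controls and 128, 155 and 140.2 CPM in Myα5KO libraries. The groups did not overlap (log2 fold change -0.38, SE 0.08, edgeR adjusted p 0.00818), and the call held with each library left out. It was lost with limma on log2(FPKM + 1) or log2(FPKM + 0.1) (limma adjusted p 0.0503 and 0.0524). Slc39a14, a zinc transporter that also carries iron, had 109.8, 87.4 and 100.5 CPM and 77.2, 75.4 and 52.4 CPM, respectively. These groups did not overlap either (log2 fold change -0.54, SE 0.12, edgeR adjusted p 0.0172), but the call was lost without ITGA5 fl/fl replicate 1 (-0.46) or 3 (-0.53). Without Myα5KO replicate 3, the lowest library, Slc39a14 was at -0.38 and was called.

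Lcn2, a lipocalin that binds iron-loaded siderophores and is stored in neutrophil granules, had 2.35, 2.11 and 2.67 CPM in the controls and 7.67, 3.37 and 10.8 CPM in Myα5KO libraries. All Myα5KO libraries were above the controls, with a wide spread (log2 fold change 1.61, SE 0.33, edgeR adjusted p 0.00945). The summed granulocyte markers had the same order in the Myα5KO libraries, with 287, 242 and 369.6 CPM in replicates 1, 2 and 3, although Ly6g held 0 to 2 counts in each library. Csf3r, the largest part of that sum, had another order in these replicates, with 155, 173 and 179 CPM. The part of these cells in the Lcn2 value was not tested.

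Of 8 tested genes of heme uptake and carriage 1 fell (5.19% of all tested genes). Of 3 further genes of heme degradation edgeR called 0, with 2 at an unadjusted p under 0.05. Slc48a1, which moves heme out of the phagolysosome, had 156, 165 and 189.8 CPM in the controls and 144.8, 145 and 131 CPM in Myα5KO libraries, without overlap (log2 fold change -0.28, SE 0.08, edgeR adjusted p 0.0455). This call was close to the threshold and held in 6 of 16 alternatives. With all 6 libraries it was lost with limma-voom (adjusted p 0.0509) and scaling by library totals (edgeR adjusted p 0.114). It was also lost with limma on log2(FPKM + 1) or log2(FPKM + 0.1) and with the replicate block. It was lost with each library left out except ITGA5 fl/fl replicate 1 (-0.34), with values from -0.31 (without Myα5KO replicate 1 or 2) and -0.30 (without ITGA5 fl/fl replicate 2) to -0.23 (without Myα5KO replicate 3) and -0.19 (without ITGA5 fl/fl replicate 3). Blvrb, which encodes a biliverdin reductase, had 86.1 to 95.8 CPM in the controls and 70.4 to 85.2 CPM in Myα5KO libraries and did not pass the test (log2 fold change -0.22, edgeR adjusted p 0.107). It passed without Myα5KO replicate 3 (-0.29, edgeR adjusted p 0.030, where its alternatives ran from 0.030 to 0.316). The other 2 lay in the opposite direction and did not pass the test either. Hmox2, which encodes the constitutive heme oxygenase, had 59.1 to 59.9 CPM in the controls and 64.3 to 69.5 CPM in Myα5KO libraries, without overlap (log2 fold change 0.16, SE 0.06, unadjusted p 0.0267, edgeR adjusted p 0.152). Blvra, which encodes the other biliverdin reductase, differed by 0.15 on the log2 scale (SE 0.07, edgeR adjusted p 0.240), with ranges that overlapped. Hmox2 and Blvra were added here after their values were seen. Of 8 tested genes of heme synthesis, 0 were called by edgeR, with 1 at an unadjusted p under 0.05 (Alas1, the first enzyme of the pathway in most tissues, log2 fold change -0.17, edgeR adjusted p 0.143).

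Of 4 transcription factors or regulators that act on heme and iron genes, 2 fell (5.19% of all tested genes were called lower). Bach1, a heme-binding repressor of Hmox1 and of ferritin genes, had 772, 666 and 708 CPM in the controls and 583, 598 and 492 CPM in Myα5KO libraries. The groups did not overlap (log2 fold change -0.36, SE 0.09, edgeR adjusted p 0.0209), and the call was lost without ITGA5 fl/fl replicate 1 (-0.30) or 3 (-0.37). Spic, a transcription factor that heme induces in iron-recycling macrophages, had 18.6, 18.3 and 23.7 CPM and 12.4, 17.1 and 13.3 CPM, respectively, without overlap (log2 fold change -0.50, SE 0.14, edgeR adjusted p 0.0346). Its call was lost without ITGA5 fl/fl replicate 3 (-0.37) and without Myα5KO replicate 1 (-0.42) or 3 (-0.46), and with scaling by library totals (-0.42).

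Nfe2l2, which encodes the activator NRF2, had 639.6 to 696 CPM in the controls and 625 to 673 CPM in Myα5KO libraries, and these ranges overlapped (log2 fold change -0.06, SE 0.07, edgeR adjusted p 0.649, and 0.02 with scaling by library totals). Keap1, which encodes the adaptor that marks NRF2 for degradation, had 24.5 to 26.9 CPM and 28.4 to 29.3 CPM, respectively, and did not pass the test (log2 fold change 0.18, SE 0.08, edgeR adjusted p 0.191).

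Among the remaining roles, edgeR called 0 of 3 iron chaperone and storage genes, 0 of 3 genes of export and its control, 0 of 1 sensor and 0 of 8 genes of mitochondrial iron and iron-sulphur clusters, with 0, 1, 0 and 2 at an unadjusted p under 0.05. The most abundant gene of each by FPKM was Pcbp1 (iron chaperone of ferritin, log2 fold change -0.04, and 0.04 with scaling by library totals), Hfe (hemochromatosis protein, 0.04), Fbxl5 (the iron-dependent adaptor for IREB2 degradation, -0.12) and Slc25a28 (mitoferrin 2, -0.19). None of these 4 passed the edgeR test, with adjusted p of 0.770, 0.774, 0.345 and 0.120.

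Erythroid transcripts were scarce in both groups. The 8 erythroid markers summed to 5.30 to 10.4 CPM in the controls and 5.59 to 8.62 CPM in Myα5KO libraries, which overlapped, and Slc4a1, the red cell anion exchanger, had 0 counts in all libraries. Of 3 tested erythroid markers edgeR called 0. At low counts, Hbb-bs (log2 fold change -0.78, edgeR unadjusted p 0.0179) and Epor (0.79, edgeR unadjusted p 0.0425) lay in opposite directions.

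**Figure D4:**
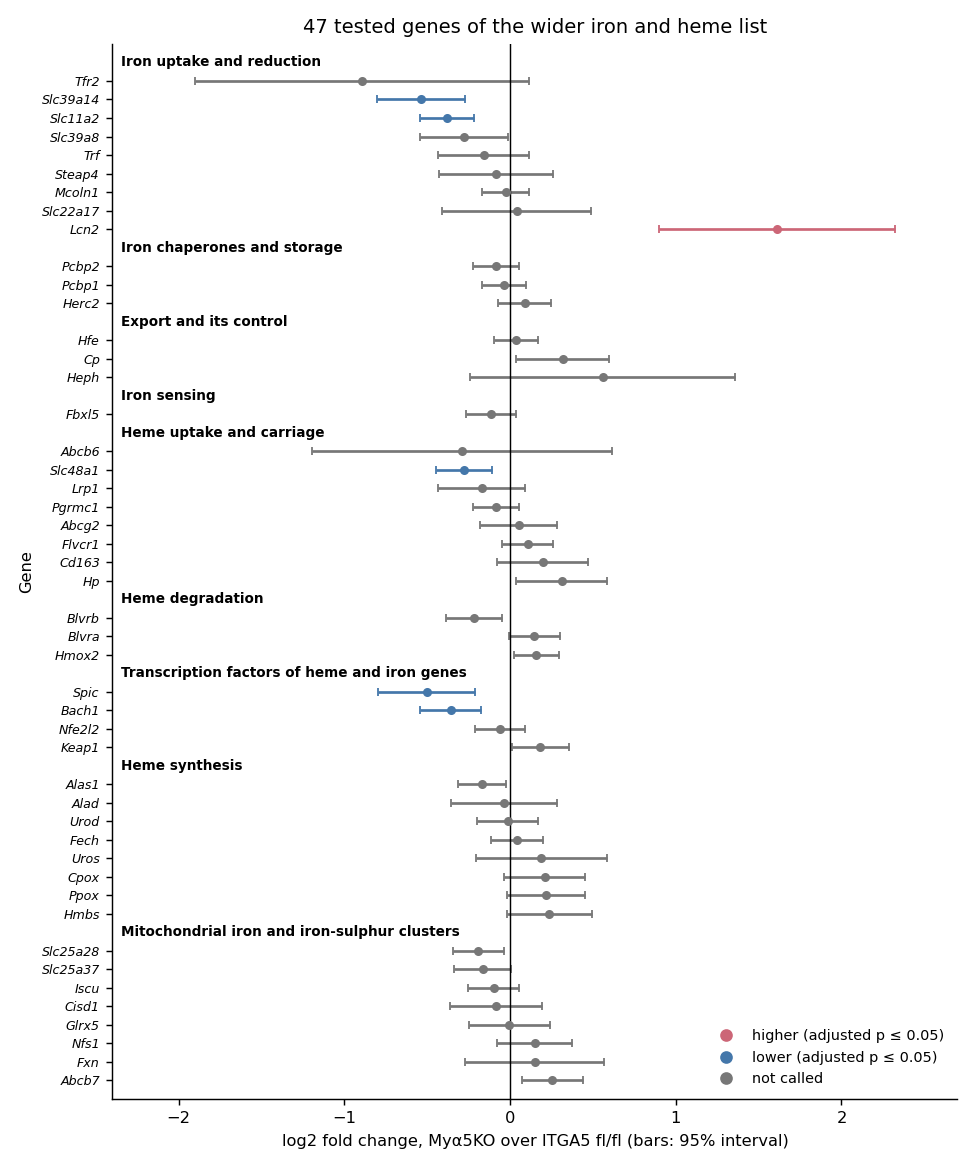
Log2 fold change of the 47 tested genes of the further list, Myα5KO over ITGA5 fl/fl, from edgeR with 95% intervals, grouped by role. Slc11a2, Slc39a14, Slc48a1, Bach1 and Spic lie below 0 and were called, Lcn2 lies above 0 and was called, and the other 41 were not called.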

How the data were processed

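RNA of Ly6G- CD11b+ cells from 6 infarcted hearts was sequenced. Per the methods of the study and the submitters' processing notes, the authors removed low-quality reads, aligned the rest to GRCm38 with TopHat2 2.0.9 and counted reads per gene with HTSeq 0.6.1. The deposited counts are whole, unnormalized read counts. The deposited FPKM are these counts divided by gene length and a constant per library. Handling of multi-mapped reads and of strand is not given in the sources used here, so counts of near-identical or overlapping genes are uncertain.

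Counts were tested with edgeR 4.0.16 (R 4.3.3, TMM scaling, quasi-likelihood test, genotype as the only term, minimum count 10 and total 15), on the 14522 genes left. Benjamini-Hochberg adjustment of the two-sided p-values covered all of them. SE is the log2 fold change divided by the square root of F, and 95% intervals use the total degrees of freedom. Ratios were tested by exact permutation (SciPy 1.17.1). The scripts were tested on simulated data. Alternatives were DESeq2 1.42.0, limma 3.58.1 (voom, and trend on log2(FPKM + 1) or log2(FPKM + 0.1)), other scalings and filters, a replicate block and each library left out. Genes named are the 10 genes, called genes of the further list, the most abundant gene of each role without a call, and Nfe2l2, Keap1, Bach1 and Spic. The genes and lists were chosen with earlier results of these data known. Replicates within a group differed beyond counting noise (chi-square per degree of freedom from 5.15 to 13.3). No molecular identifiers were used, so a count is of reads and not of molecules.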

Additional observations from a re-analysis of the deposited data

How the results depend on the processing

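Each gene was refitted in 16 alternatives. Hmox1, Fth1 and Ncoa4 were called in all of them. In the fit without a count filter the total degrees of freedom were 111000, against 13.5 in the main fit. Its variances were thus pooled over genes and its adjusted p are far smaller, so its calls are weak support. The count of the 10 genes called higher ran from 1 to 2 and of those called lower from 2 to 3 when a library was left out. In the further list, the counts were 1 in each such fit and 1 to 4, with 1 lower without ITGA5 fl/fl replicate 3 and 3 without ITGA5 fl/fl replicate 1 or Myα5KO replicate 1. With log2(FPKM + 1) or log2(FPKM + 0.1), limma called 0 higher and 0 lower of 43 tested genes of the further list. At an unadjusted p under 0.05, 4 were higher and 8 lower, a count not taken over all genes in these fits. Library totals gave 3 higher and 3 lower, and no count filter 3 higher. Library totals moved the median of all genes to 0.095, from 0.0146, and reversed Nfe2l2 (0.0198) and Pcbp1 (0.0431). Other causes were not tested. Leaving out a library reversed Slc40a1 (range -0.0024 to 0.35), Tfrc (-0.0166 to 0.0661), Ftl1 (-0.145 to 0.0357) and the log2 ratio of Aco1 to Ireb2 (-0.0007 to 0.0914). The ratio of Fth1 to Ftl1 stayed between -0.43 and -0.29.

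Deviations from the group mean correlated at 0.05, -0.07 and 0.04 between same-numbered libraries, and at -0.11 to 0.08 between the others. Centred within 3 libraries per group, these values cannot exclude a pairing by replicate number. With the replicate block, 1 and 3 of the 10 genes were higher and lower, and 1 and 4 of the further list. Slc48a1 lost its call (-0.27, edgeR adjusted p 0.0735, where its alternatives ran from 0.00734, without a count filter, to 0.207). Paired by number, the Fth1 to Ftl1 difference had an exact p of 0.25, the smallest 3 pairs allow. The Slc11a1 call held in 7 of 10 alternatives with all 6 libraries, among them the fit without a count filter, and in 1 of 6 with a library left out.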
